A study of Mus musculus with 12 samples.

Results

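miR-21 was read out in all 12 small RNA libraries of the study, as every listed entry whose name, without species prefix, arm, star and copy number, is miR-21. These entries numbered 174 of 7354, and miR-21 was 1 of 324 miRNA names, 51 of which were listed in every library. Small RNAs of 19 to 30 nt, with the 5′ phosphate and 3′ hydroxyl ends that RNase III enzymes leave, had been cloned from 4 mouse cell types in 3 genotypes, with 1 library per combination. The cells were sorted DN3 thymocytes (T cell precursors without CD4 and CD8), sorted CD4+CD25+ regulatory T cells (Treg), sorted CD4+ T cells (CD4, activated per the series title) and embryonic fibroblasts (MEF). In each cell type the groups were Drosha-deficient, Dicer-deficient and control cells.

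DN3 cells came from the thymus of Drosha Lck-cre, Dicer Lck-cre and Lck-cre mice. Treg and CD4 cells were sorted from lymph nodes and spleen of Drosha CD4-cre, Dicer CD4-cre and CD4-cre mice. MEF were derived from E14.5 Drosha Rosa26-CreER, Dicer Rosa26-CreER and Rosa26-CreER embryos, so the controls carried the same Cre driver as the deletion groups. All were on a backcrossed C57BL/6 background, with a labelled age of 6 to 7 weeks that the MEF entries also carry beside the embryonic day. Lck-cre and CD4-cre act in T lineage cells, and Rosa26-CreER acts in any cell type once its ligand is given. Neither enzyme's own RNA is in these lists, so how complete each deletion was is not known from them.

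Most miRNA hairpins are released from their primary transcript by Drosha in the nucleus and are then cut by Dicer in the cytoplasm into a duplex of guide and star strands. The miR-21 guide lies on the 5′ arm of its hairpin. Drosha therefore sets the 5′ end of the guide and the 3′ end of the star, while Dicer sets the 3′ end of the guide and the 5′ end of the star. miR-21 is known as an abundant miRNA of many tissues that is induced by STAT3 and AP-1, that rises in activated T cells and that represses Pdcd4 and Spry1. In fibroblasts it is known for its part in growth signalling and fibrosis.

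The miR-21 hairpin gene (Mir21a) lies on the minus strand of chromosome 11, at 86584067 to 86584158 of GRCm38, inside exon 12 of Vmp1, a protein-coding gene of autophagy on the same strand. That exon's 3′ UTR spans 86583865 to 86585310. In the hairpin of 92 nt the guide takes positions 18 to 39 (chr11:86584120-86584141) and the star positions 56 to 77 (chr11:86584082-86584103). The RefSeq sequences of both strands, and of the related miR-21b and miR-21c from chromosomes 3 and 8, are shown 5′ to 3′ with the seed (bases 2 to 8) in capitals, because the seed decides which targets a strand can pair with. Among 1738 mature mouse miRNAs in the RefSeq table, the guide seed occurred in miR-21 and miR-21c only, and the star seed in miR-21 only. No entry named miR-21b or miR-21c occurred in the 12 lists.
miR-21 guide: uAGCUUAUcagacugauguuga
miR-21 star: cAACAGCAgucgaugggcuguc
miR-21c: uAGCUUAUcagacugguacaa
miR-21b: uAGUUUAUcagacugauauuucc

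The DN3 and Treg lists give each distinct sequence with its value. The 5 leading guide forms, an early-start form and the 3 leading star forms are shown as deposited, since the variation of miR-21 in these cells lies at their ends. Capitals mark the bases after position 20 of the guide forms, the extra first base of the early-start form, and the bases after position 21 of the star forms.
20 nt guide: tagcttatcagactgatgtt
21 nt guide: tagcttatcagactgatgttG
22 nt guide: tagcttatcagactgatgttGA
23 nt guide: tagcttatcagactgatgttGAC
24 nt guide: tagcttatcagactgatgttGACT
early-start guide: Atagcttatcagactgatgttga
21 nt star: caacagcagtcgatgggctgt
22 nt star: caacagcagtcgatgggctgtC
23 nt star: caacagcagtcgatgggctgtCT

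The deposited values are whole numbers that sum to 893850 to 1027032 per library, so they are read here as normalised values and not as reads. A missing entry lies below the lowest value of its list, which is 10 in the DN3 and Treg lists, 11 to 20 in the CD4 control and MEF lists, 526 in CD4 Drosha and 645 in CD4 Dicer. In the CD4 and MEF lists the low values rise in fixed steps, which implies about 7600, 6200 and 100000 reads in CD4 Drosha, Dicer and control and about 77300, 270200 and 275300 in MEF Drosha, Dicer and control. The CD4 Dicer step fits least well, since 65.0% of its low values are whole steps. The CD4 control step of 10 could also be rounding, and the CD4 control intervals below hold only if that step is 1 read. For DN3 and Treg no depth can be had from the values. All intervals below are exact (Clopper-Pearson) 95% intervals from these implied reads and cover counting error only. With 1 library per group, no difference within a cell type has a replicate check. Markers of the labelled cell types were listed. The T cell markers miR-142, miR-150, miR-181a and miR-342 were all listed in the 9 T lineage libraries at 4.59% to 17.8% in sum, against 0.703% to 0.897% in MEF. Of these, miR-142 was higher in each T lineage library than in MEF, and miR-150 was not listed in MEF. However, miR-342 had 441, 129 and 49 in DN3 Drosha, Dicer and control, below its MEF values of 891, 562 and 836. Likewise miR-181a had 3230 in CD4 control, below its MEF values of 6305, 6415 and 7960. All 7 fibroblast markers were listed in the 3 MEF libraries, at 62.4% to 75.4% in sum. The same 7 took 6.84%, 14.4% and 15.3% in CD4 Drosha, Dicer and control, above the T cell marker sums of 4.59%, 7.01% and 8.51% there. Of these CD4 values miR-22 gave 62368, 127581 and 152800, and the other listed fibroblast markers at most 984 each. The part of fibroblast-marker RNA in the CD4 values of miR-21 was not tested. In DN3 and Treg the fibroblast sums were 0.119% to 1.66%.

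miR-21 was the most abundant miRNA of regulatory T cells and was far lower in the CD4 and fibroblast lists. Guide and star together had values of 277287, 295656 and 173383 in Treg Drosha, Dicer and control, or 27.0%, 29.1% and 17.3% of the library. In DN3 Drosha, Dicer and control the sums were 65195, 64785 and 51953, or 6.55%, 6.52% and 5.23%. In each of these cell types the control library was the lowest of the 3.

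The CD4 values were 2632, 19677 and 16210 in Drosha, Dicer and control, or 0.289% (interval 0.161% to 0.406%), 2.20% (1.64% to 2.34%) and 1.62% (1.54% to 1.70%). The CD4 Drosha value is the guide alone, since the star was not listed there. Shares divide by the listed total, 911314 in CD4 Drosha and 893850 in CD4 Dicer. The intervals divide by the implied reads, which correspond to a total above the listed one there. The CD4 Drosha and Dicer intervals thus sit low against their shares. The MEF values were 6331, 12706 and 12098 in Drosha, Dicer and control, or 0.636% (0.578% to 0.691%), 1.27% (1.23% to 1.31%) and 1.21% (1.17% to 1.25%). In both of these cell types the Drosha library was the lowest of the 3. Among controls the order was Treg, DN3, CD4, MEF. The CD4 and MEF control intervals do not overlap, but their lists and those of DN3 and Treg may come from different steps, and levels were not tested between cell types.

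**Figure D1:**
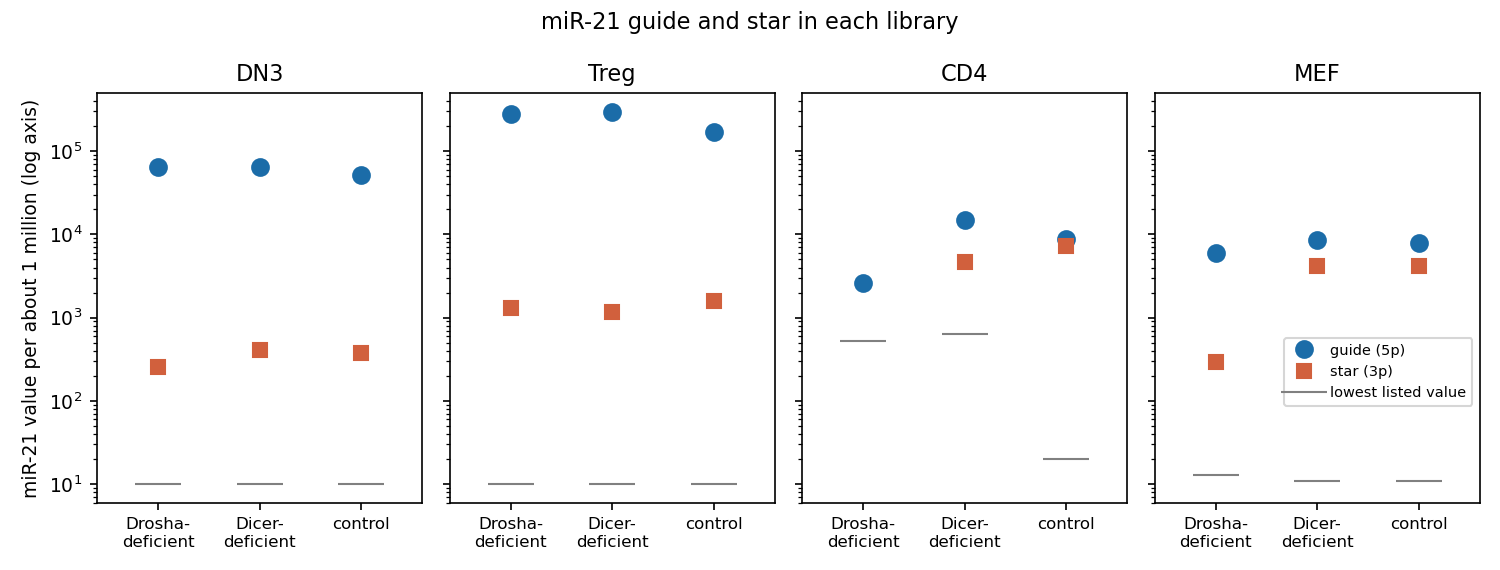
miR-21 guide (circles) and star (squares) deposited values, on a log axis, in each of the 12 libraries, with the lowest listed value of each library as a grey bar. The guide lies at 171793 to 294500 in the 3 Treg libraries and at 2632 to 15000 in the CD4 and MEF libraries, and no star is drawn for CD4 Drosha, where it was not listed.

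By rank among the listed names, miR-21 was first in all 3 Treg libraries. The next miRNA was miR-16 in the Drosha (119254) and Dicer (124433) libraries, and miR-142 (115744) in the control library. In DN3 it ranked 4th in Drosha (below miR-20a at 79426, above miR-128 at 37180), 3rd in Dicer (below miR-181a at 98915, above miR-20a at 61758) and 4th in control (below miR-20a at 91963, above let-7f at 46303). miR-20a belongs to the proliferation-linked miR-17-92 cluster, and miR-181a is a thymocyte miRNA that tunes T cell receptor signalling.

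Ranks were lower and more variable in the shallow CD4 lists. There miR-21 ranked 26th in Drosha, tied with let-7g (below miR-210 at 2763, above miR-805 at 2500), 8th in Dicer (below miR-146a at 23115, above miR-1937b at 18226) and 17th in control (below miR-17 at 16480, above miR-146a at 14220). In MEF it ranked 10th in Drosha (below miR-210 at 7119, above miR-181a at 6305), 6th in Dicer (below miR-143 at 13311, above miR-320 at 10900) and 5th in control (below let-7i at 21287, above miR-143 at 11840). The star strand alone was the most abundant star of MEF Dicer and MEF control, among 50 and 49 listed stars, and ranked 7th of 41 in MEF Drosha. It was also first of 8 listed stars in CD4 Dicer, and ranked 2nd of 40 in CD4 control. In Treg Drosha, Dicer and control it ranked 2nd of 28, 2nd of 27 and 3rd of 30. In DN3 Drosha, Dicer and control it ranked 6th of 26, 8th of 30 and 6th of 33.

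Drosha-deficient and control cells differed in miR-21 in opposite directions between cell types. The Drosha to control log2 ratio of the summed value was positive in DN3 (0.33) and Treg (0.68). It was negative in CD4 (-2.62, interval -3.34 to -1.99) and MEF (-0.93, interval -1.08 to -0.80). The CD4 Drosha sum holds the guide only, since its star was not listed, while the control sum holds both strands. For the guide alone the CD4 ratio was -1.75. Since each value is a share of its library, the ratio was also set against the median miRNA listed in both libraries. For DN3 that median lay at -0.32 and miR-21 at 0.65 relative to it. For Treg the median was -0.05 and miR-21 stood 0.73 from it. For CD4 the median was -1.13 and miR-21 stood -1.49 from it, or -0.62 for the guide alone. For MEF the median was -0.87 and miR-21 stood -0.07 from it, so the MEF difference in the summed value was close to that of the median miRNA.

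The summed value of miR-21 lay at least 1 log2 unit from that median in CD4. There 67.1% of 76 miRNAs did, so most miRNAs of that comparison lay that far out. The CD4 guide alone, at -0.62, did not lay that far out. The summed value lay closer in DN3 (37.1% of 140 miRNAs were that far), Treg (35% of 143) and MEF (38.1% of 189). The CD4 ratio rests on about 20 reads of miR-21 in the Drosha library, and a miRNA with a control value below 526 enters that comparison only if it is higher in Drosha. In bulk samples such as these, fewer cells of a type and less RNA per cell cannot be told apart.

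Erythroid miRNAs moved in the same Treg comparison: miR-451, miR-144 and miR-486 together took 0.831% of Treg Drosha, 0.0975% of Treg Dicer and 0.120% of Treg control, with 3, 2 and 3 of the 3 listed. The endothelial miR-126 took 0.0201%, 0.00610% and 0.00339% in those libraries. The myeloid miR-223 took 0.0573%, 0.0734% and 0.00239%. The part of cells marked by these miRNAs in the Treg values of miR-21 was not tested.

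Dicer-deficient cells were above control cells in the summed miR-21 value in 4 of 4 cell types, by 0.07 to 0.77 log2 units. The DN3 log2 ratio was 0.32, or 0.31 relative to the median miRNA, and 8.11% of 148 miRNAs lay 1 unit or more from that median. The Treg ratio was 0.77, or 0.84 relative to the median (16.5% of 139 miRNAs past 1 unit). The CD4 ratio was 0.28 (interval 0.00213 to 0.55), or 0.18 relative to the median (71.4% of 84). The MEF ratio was 0.07 (interval 0.0013 to 0.14), or 0.26 relative to the median (5.79% of 190). The summed value of miR-21 lay closer than 1 unit in each. The star alone was lower in Dicer than in control in Treg (1156 against 1590) and CD4 (4677 against 7350). It was higher in DN3 (414 against 375) and MEF (4214 against 4171). The Drosha and Dicer comparisons share the control libraries.

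Set directly against Drosha-deficient cells, Dicer-deficient cells had nearly the same miR-21 value in DN3 (log2 ratio -0.01, or -0.35 relative to the median miRNA) and Treg (0.09, or 0.10 relative to it). They were higher in CD4 by 2.90 (interval 2.21 to 3.66), or 1.95 relative to the median, and 1 of 68 miRNAs stood higher than miR-21. Those 68 were listed in both libraries, so a miRNA below the floor of 526 in CD4 Drosha could not be ranked. The CD4 Drosha sum lacks the star, and for the guide alone the CD4 ratio was 2.51, or 1.56 relative to the median. Dicer-deficient cells were higher in MEF by 1.005 (interval 0.87 to 1.15), or 0.36 relative to the median. The CD4 value was the one at 1 unit or more from the median, where 30.9% of miRNAs were. For DN3 that share was 41.7% (144 miRNAs), for Treg 16.4% (146) and for MEF 41.7% (187).

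**Figure D2:**
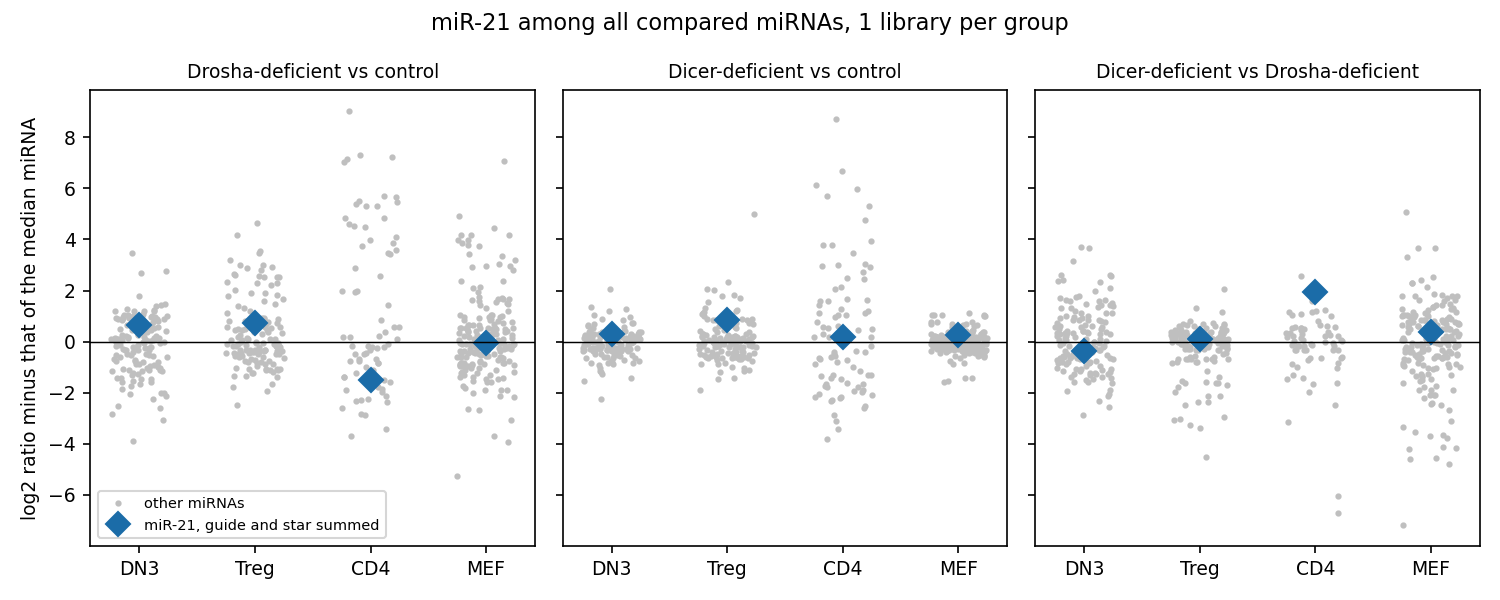
Log2 ratio of miR-21 (diamonds) minus that of the median miRNA for each cell type and comparison, with every other compared miRNA as a grey dot and 1 library per group. Relative to control, miR-21 lies within 1 unit of the median in DN3, Treg and MEF, and at -1.49 in the CD4 Drosha-deficient to control comparison. The CD4 Drosha-deficient sum holds the guide only.

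Across cell types, limma fitted to all 157 miRNAs with cell type as a block gave miR-21 no call. Its log2 change was -0.64 ± 0.55 (SE, 4 cell types) in Drosha against control, with an adjusted p of 0.50. The libraries were higher in 2 cell types and lower in 2. In Dicer against control it was 0.36 ± 0.55, higher in 4 of 4, with an adjusted p of 0.99, and in Dicer against Drosha 0.998 ± 0.55, higher in 3 of 4, with an adjusted p of 0.52 by the same limma test. The calls among all 157 miRNAs were 0 (0%), 0 (0%) and 1 (0.637%), with 31, 4 and 15 at an unadjusted p under 0.05. The median miRNA of the fit was at -0.50, -0.08 and 0.34, so miR-21 lay -0.14, 0.44 and 0.66 from it. The direction of the Drosha change rests on the CD4 Drosha library, whose sum holds the guide only: without that library the value was 0.01 ± 0.39. With median-of-ratios scaling it was 0.06 ± 0.37. It was -0.29 without CD4 control, -0.97 without DN3 Drosha and -1.01 without Treg Drosha. The Dicer to Drosha value was 0.35 ± 0.39 without the CD4 Drosha library. The Dicer to control value was 0.06 without CD4 Dicer, 0.07 without Treg control, 0.21 without DN3 control and 0.70 without CD4 control.

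The guide and star strands of miR-21 had different ratios to control in the Drosha libraries. The MEF guide stood at 6034, 8492 and 7927 in Drosha, Dicer and control, while the star stood at 297, 4214 and 4171. The star was thus 14.0-fold lower in MEF Drosha than in MEF control, and the guide 1.31-fold lower. Relative to the median miRNA the star stood at -2.94 log2 units and the guide at 0.47, so the direction of the guide turned to higher on that scale. Of all miR-21 reads, the star was 4.69% (interval 3.0% to 6.97%) in MEF Drosha, 33.2% (31.6% to 34.8%) in MEF Dicer and 34.5% (32.9% to 36.1%) in MEF control. The Drosha interval, from about 23 star and 466 guide reads, lies apart from the other 2.

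In CD4 the guide stood at 2632, 15000 and 8860 in Drosha, Dicer and control. The star was not listed in CD4 Drosha, so below 526, and stood at 4677 in Dicer and 7350 in control. The star was 23.8% (interval 16.5% to 32.3%) of miR-21 in CD4 Dicer and 45.3% (42.9% to 47.8%) in CD4 control. In CD4 Drosha the floor allows at most 3 star reads beside about 20 guide reads, or 13.0% with an upper bound of 33.6%, which lies below the control interval. Against the lowest listed value of 526, the CD4 star was at least 14.0-fold lower in Drosha than in control (log2 ratio -3.80). The guide was 3.37-fold lower (log2 ratio -1.75), or -0.62 relative to the median miRNA, which lay at -1.13. The bound on the star leaves out counting error and is not set against that median.

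In DN3 and Treg the star was a small part of miR-21 in every library. Its values were 257, 414 and 375 in DN3 Drosha, Dicer and control, or 0.394%, 0.639% and 0.722% of miR-21, and 1297, 1156 and 1590 in Treg Drosha, Dicer and control, or 0.468%, 0.391% and 0.917%. In both cell types the control had the highest star share. The guide values were 64938, 64371 and 51578 in DN3 and 275990, 294500 and 171793 in Treg, in the same order of groups.

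Other miRNAs with both strands listed in both libraries of a comparison give the background. A miRNA whose star fell below the floor in either library drops out. Large falls of less abundant stars are therefore not seen, and the ranks below hold only among the miRNAs compared. The star to guide ratio of miR-21 changed by -3.42 log2 units in MEF Drosha against control, where the median of 27 miRNAs was 0.01 and 37% changed by 1 unit or more. Of these 27, only miR-27a, at -4.28, changed further down. In Treg the Drosha change against control was -0.98, the lowest of 24 miRNAs (median -0.04, 4.17% past 1 unit), and the Dicer change -1.24, where 1 of 24 was lower (median -0.12, 16.7% past 1 unit). In DN3 it was -0.88 in Drosha (median of 22 miRNAs -0.30, 40.9% past 1 unit) and -0.18 in Dicer (median of 28 miRNAs 0.21, 10.7% past 1 unit). In CD4 Dicer it was -1.41, with 6 miRNAs compared and a median of -0.89 (50% past 1 unit), and in MEF Dicer -0.08 (median of 35 miRNAs -0.15, 5.71% past 1 unit). Between Dicer and Drosha the star to guide ratio differed by 3.33 in MEF, with 25 of 27 miRNAs lower (median -0.05, 48.1% past 1 unit). It differed by 0.70 in DN3 (median of 22 miRNAs 0.56, 40.9% past 1 unit) and -0.26 in Treg (median of 24 miRNAs -0.14, 8.33% past 1 unit).

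**Figure D3:**
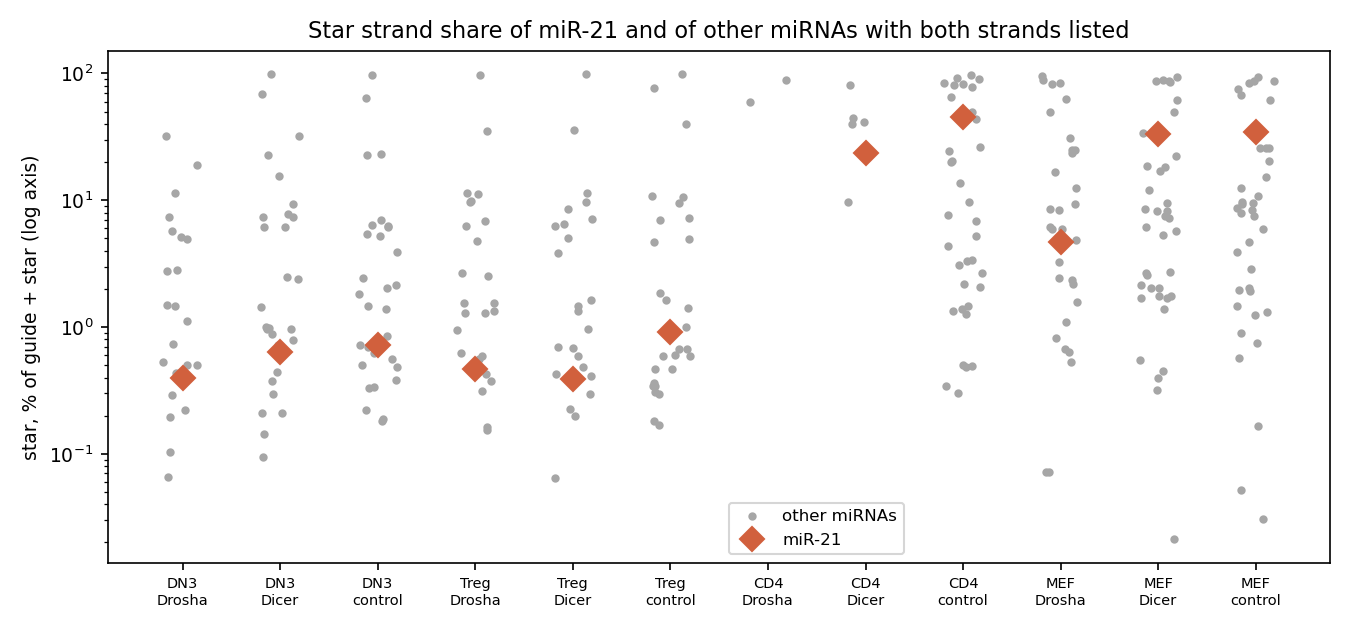
Star strand as a percentage of guide plus star, on a log axis, for miR-21 (diamonds) and for each other miRNA with both strands listed and a sum of at least 100 (dots), in the 12 libraries. miR-21 lies at 33.2% and 34.5% in MEF Dicer and control and at 4.69% in MEF Drosha, and below 1% in all DN3 and Treg libraries.

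When each strand was fitted as an entry of its own, among 180 entries, the star had a log2 change of -1.55 ± 0.81 (SE, 3 cell types) in Drosha against control, with a limma adjusted p of 0.32 (0% of entries called). The star log2 ratio was negative in 3 of 3 cell types, at -0.54 in DN3, -0.29 in Treg and -3.81 in MEF. The median miRNA was negative there too, at -0.32, -0.05 and -0.87. Relative to that median the star stood at -0.22 in DN3, -0.24 in Treg and -2.94 in MEF. The guide had -0.28 ± 0.47 over 4 cell types, with a limma adjusted p of 0.71. In Dicer against control the star had -0.10 ± 0.81 and the guide 0.49 ± 0.47, both with a limma adjusted p of 0.99. In Dicer against Drosha the star had 1.45 ± 0.81 and the guide 0.77 ± 0.47, both with a limma adjusted p of 0.51 (1 of 180 entries, or 0.556%, called). This fit was added after the strands' values were seen, and neither strand passed in it. The difference between the strands was itself not tested.

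The star share also differed by list format. It was 23.8% to 45.3% in CD4 Dicer and control and 33.2% to 34.5% in MEF Dicer and control, against below 1% in all 6 DN3 and Treg libraries. The median miRNA with both strands was at 7.28% and 8.50% in MEF Dicer and control and 7.29% in CD4 control, against 0.917% to 1.44% in DN3 and Treg. It was at 40.8% in CD4 Dicer, above miR-21, where 4 of 6 miRNAs had a higher star share than miR-21. In MEF Drosha it was at 6.06%, also above miR-21, with 19 of 32 higher. In CD4 control 9 of 36 miRNAs had a higher star share than miR-21, and in MEF control 7 of 38. In DN3 control it was 20 of 32, and in Treg control miR-21 was the median miRNA of 29. The part of the list format in this was not tested.

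In the DN3 and Treg lists miR-21 comprised 36 distinct sequences: 27 guide, 8 star and 1 longer hairpin sequence. All 36 matched the hairpin exactly. A library held 21 to 34 of them and 19 were listed in all 6. The 22 nt guide led everywhere, with 57.2%, 52.5% and 46.6% of the guide value in DN3 Drosha, Dicer and control and 52.1%, 51.7% and 48.6% in Treg Drosha, Dicer and control. Only the guide of 15 nt, the shortest form, also occurs in another RefSeq mouse hairpin.

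The 5′ end of the guide hardly varied. Sequences starting at the RefSeq first base took 99.5% to 99.7% of the guide value in all 6 libraries. The early-start form and its shorter and longer versions took 0.376%, 0.219% and 0.301% in DN3 Drosha, Dicer and control, and 0.379%, 0.333% and 0.273% in Treg Drosha, Dicer and control. All later starts together took 0.0979% to 0.175%. Among 34 miRNAs with a guide value of at least 1000 in every library, the median share of the commonest start was 99.6% to 99.7%, and 12 to 19 of them had a lower share than miR-21. The commonest position of this end, which Drosha's cut sets, was the same in libraries of all 3 genotypes.

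The 3′ end varied more, and its distribution differed between libraries. The 21 nt form took 6.22%, 19.4% and 16.8% of the guide value in DN3 Drosha, Dicer and control, and 18.0%, 20.8% and 31.7% in Treg Drosha, Dicer and control. The 23 nt form took 33.5%, 24.8% and 32.6% in DN3 and 26.4%, 24.4% and 15.8% in Treg, in the same order of groups. The 21 nt form was lowest in DN3 Drosha and highest in Treg control, which was also the only library with more 21 nt than 23 nt guide.

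The 20 nt form took 0.582%, 1.46% and 1.38% in DN3 Drosha, Dicer and control, and 1.27%, 1.22% and 2.33% in Treg Drosha, Dicer and control. The 24 nt form took 1.90%, 1.17% and 1.83% in DN3 and 1.44%, 1.25% and 0.818% in Treg, in the same order. The ratio of 23 nt to 21 nt guide was 5.38, 1.28 and 1.94 in DN3 Drosha, Dicer and control, and 1.47, 1.17 and 0.498 in Treg Drosha, Dicer and control. In DN3 the Drosha library thus had the longest guides and Dicer the shortest, while in Treg both deletion libraries had longer guides than control.

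**Figure D4:**
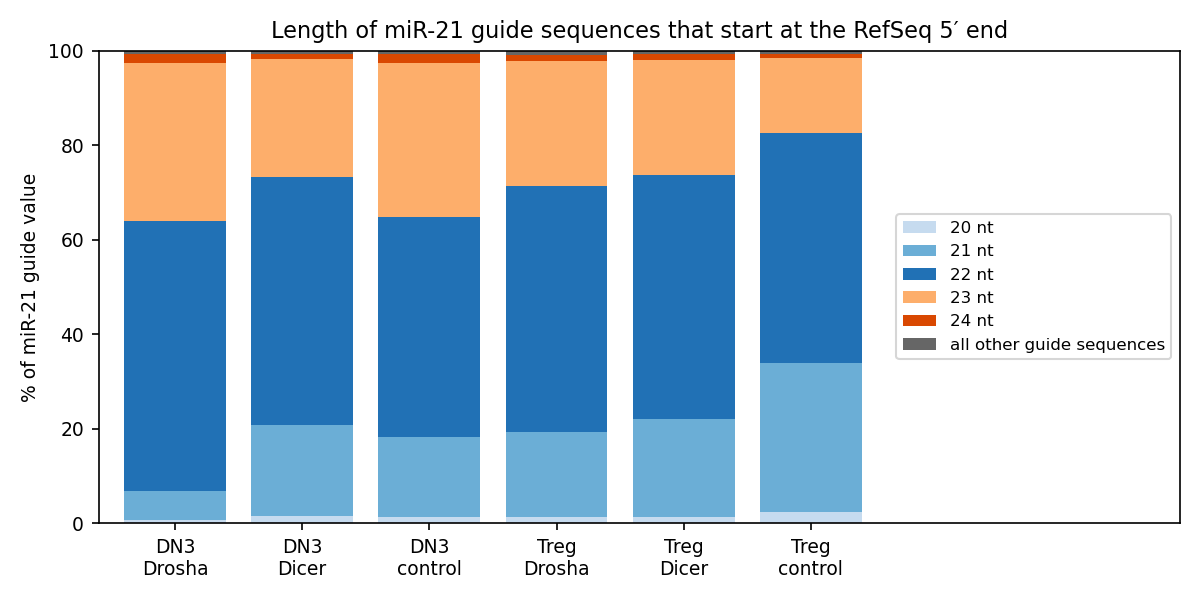
Share of the miR-21 guide value in DN3 and Treg libraries by length of sequences with the RefSeq 5′ end, as stacked bars that add to 100% with all other guide sequences. The 22 nt form is the largest part of every bar, and the 21 nt part runs from 6.22% in DN3 Drosha to 31.7% in Treg control.

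Against control, most other miRNAs differed in length in the same direction as miR-21. The mean guide length of miR-21 was 22.29, 22.04 and 22.15 nt in DN3 Drosha, Dicer and control, and 22.08, 22.03 and 21.80 nt in Treg Drosha, Dicer and control. The difference to control was 0.140 nt in DN3 Drosha and -0.119 nt in DN3 Dicer. Of the 33 other miRNAs, 29 were also longer in DN3 Drosha (median 0.102 nt) and 32 were also shorter in DN3 Dicer (median -0.101 nt). In Treg the difference was 0.279 nt in Drosha and 0.230 nt in Dicer, and 22 and 30 of the 33 were also longer there (medians 0.111 and 0.134 nt). The difference of miR-21 was exceeded by 11 of the 33 in DN3 Drosha. For Treg it was 7 in Drosha and 9 in Dicer. In DN3 Dicer 15 of the 33 shortened further than miR-21. Against Drosha, the Dicer libraries had a difference of -0.259 nt in DN3, where 32 of the 33 others were also shorter (median -0.210 nt). In Treg it was -0.0493 nt, where 17 of the 33 were longer and 16 shorter (median 0.00636 nt).

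**Figure D5:**
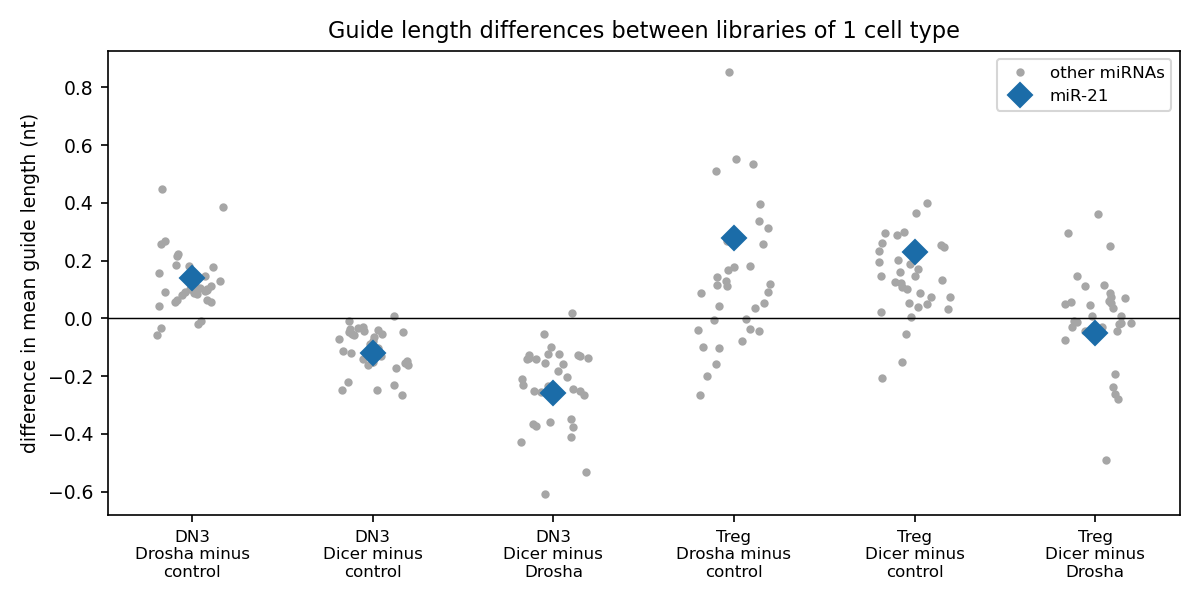
Difference in mean guide length (nt) between libraries of 1 cell type, for miR-21 (diamonds) and 33 other miRNAs (dots). miR-21 lies at 0.140 nt in DN3 Drosha minus control and at 0.279 nt in Treg Drosha minus control, among most of the other miRNAs on the same side of 0.

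The 22 nt star led in all 6 libraries. It took 51.0%, 51.4% and 47.5% of the star value in DN3 Drosha, Dicer and control, and 49.5%, 46.0% and 43.4% in Treg Drosha, Dicer and control. The 21 nt star took 29.2%, 33.3% and 38.4% in DN3 and 34.8%, 37.8% and 38.2% in Treg, in the same order. The DN3 shares rest on star sums of 257 to 414, where single sequences lie close to the floor of 10. The longer hairpin sequence, a guide of 26 nt that runs past the usual Dicer cut, had values of 12 and 10 in Treg Drosha and Dicer and was below 10 in the other 4 libraries. Forms under 19 nt, all of them guide sequences and shorter than the labelled insert range, took 0.107% to 0.221% of miR-21.

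The miRNAs whose profile over the 12 libraries was most like that of miR-21 were let-7g, let-7a and miR-26a, among 50 names listed in every library. Their root mean square difference from miR-21, after each profile was centred on its own mean, was 0.83, 1.06 and 1.10 log2 units, against a median of 2.71 for the 50. miR-21 itself varied by 2.08 log2 units around its mean. let-7g, of the let-7 family linked to differentiation, had values of 27868, 24923 and 28645 in DN3 Drosha, Dicer and control, and 33533, 36117 and 51722 in Treg. Its CD4 values were 2632, 5574 and 8030, and its MEF values 1925, 2763 and 3069, in the same order of groups. The likeness is a description over 12 libraries in lists of 2 formats.

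A list of 9 other miRNAs, chosen as induced by T cell or fibroblast activation, NF-kB, AP-1 or STAT3, was set beside miR-21. Of its 8 fitted members none passed limma's test in any comparison, where 0%, 0% and 0.637% of all 157 miRNAs did, so the absence of calls is no result about the list. In Drosha against control 6 members had positive and 2 negative fitted changes (median 0.11, against -0.50 for all miRNAs). In Dicer against control it was 5 and 3 (median 0.28, against -0.08), and in Dicer against Drosha 4 and 4 (median -0.17, against 0.34). These medians describe the list and were not tested.

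Within this list, miR-146a, an NF-kB-induced brake on innate signalling, had values of 25115, 24622 and 13966 in Treg Drosha, Dicer and control, so control was lowest there, as for miR-21. Its CD4 values were 5658, 23115 and 14220, again in the order of miR-21. Its MEF values were 1395, 126 and 175, where Drosha was the highest, and in DN3 it had 33 and 63 in Drosha and Dicer and was not listed in control. miR-155, which supports T cell activation, had 6781, 7208 and 5150 in Treg Drosha, Dicer and control and 1711, 9836 and 4260 in CD4. In DN3 it had 2883, 2287 and 4032, with control highest, and in MEF 78, 59 and 33. miR-146b had 1003, 592 and 544 in DN3 Drosha, Dicer and control and 97, 124 and 36 in Treg. Its CD4 values were 789, 820 and 3700, and its MEF values 116, 48 and 102. The CD4 Drosha and Dicer values lie close to the floors of 526 and 645.

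miR-221, which lowers the cell cycle inhibitor p27, had 249, 211 and 75 in Treg Drosha, Dicer and control, 948, 861 and 520 in DN3, 789, 3065 and 950 in CD4 and 1641, 1892 and 2433 in MEF. Its order of groups was that of miR-21 in CD4, and control was lowest in DN3 and Treg as for miR-21. Its CD4 Drosha value of 789 lies close to the floor of 526 and not far from the control value, so that order is weak. miR-222, from the same cluster, had 86, 145 and 78 in DN3 and 168, 108 and 149 in MEF, and was listed elsewhere at 22 in Treg Drosha and 100 in CD4 control. miR-31 had 8573, 1850 and 3139 in DN3, with Drosha highest, and 750, 499 and 1425 in Treg, with control highest. Its MEF values were 9238, 8137 and 9099. In CD4 it was not listed in Drosha and had 1613 and 190 in Dicer and control. The hypoxia-induced miR-210 had 2763, 6774 and 36220 in CD4 and 7119, 3614 and 4051 in MEF. In DN3 it had 115, 51 and 53 and in Treg 100, 59 and 54, with Drosha highest in each. miR-132 had 30, 14 and 11 in Treg and 26, 97 and 65 in MEF, and miR-212 had 26, 11 and 25 in MEF, where the lowest listed values are 13, 11 and 11. In CD4 control they had 100 and 50.

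miR-21 is 1 of the hairpins whose nuclear cut is known from human cells to be promoted by Smad proteins. Of 5 others on that list, miR-199a and miR-421 were listed in 2 cell types each, miR-105, miR-215 and miR-509 were not listed, and none qualified for the fit. miR-199a, a mesenchymal miRNA, had values of 943, 2800 and 3276 in MEF Drosha, Dicer and control. miR-421 had 35, 20 and 97 in DN3 Drosha, Dicer and control, and 25 and 16 in Treg Drosha and Dicer.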

How the data were processed

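Per the labels, adaptors were clipped from the reads, which were then mapped to miRNA loci. Aligner, miRBase release and genome build: not given in the sources used here. Values deposited for miRNAs are scores, whole numbers with like totals per library, normalised by the authors per most file headers (the DN3 Dicer header says only mapping count). Read counts are not used, so the fallback fixed with the design, limma, replaced a count test. The members and lists were chosen with earlier results of these data known.

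Guide and star values were summed per name without arm and copy number. limma 3.58.1 (R 4.3.3) compared genotypes on log2(value + 1), blocked by cell type. A cell type entered where all 3 libraries listed the miRNA at 10 or more, in at least 2 cell types. Benjamini-Hochberg adjustment ran over 157 miRNAs, at a threshold of 0.05. p-values measure the spread between cell types. The fit was also run on simulated data with the same change in all cell types. Changes that differ between cell types, as for miR-21 here, were not simulated. Ratios within a cell type used a pseudocount of 0.5 and miRNAs with a summed value of at least 50. Implied reads took the step that made most low values whole within 0.6: 100% in CD4 Drosha, CD4 control and MEF control, 99.5% in MEF Drosha, 83.6% in MEF Dicer and 65.0% in CD4 Dicer. The CD4 control step of 10 could also be rounding. Star shares between miRNAs used sums of at least 100. Named miRNAs were those next to miR-21 in rank, the 3 with the most similar profile, seed relatives and the members of both lists found in 2 or more cell types. Start and end positions of genic sequences are deposited for DN3 control only, another kind of value, without counts; the other annotations are RefSeq and GENCODE M21 (GRCm38).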

Additional observations from a re-analysis of the deposited data

Results flagged for a closer look

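The Drosha-deficient to control log2 ratio of miR-21 had opposite signs between cell types, at 0.33 in DN3 and 0.68 in Treg and at -2.62 in CD4 and -0.93 in MEF. The Dicer-deficient to Drosha-deficient ratio was close to 0 in DN3 (-0.0091) and Treg (0.0925) and positive in CD4 (2.90) and MEF (1.005). The CD4 Drosha sum holds the guide only, and for the guide alone these CD4 ratios were -1.75 and 2.51. With 1 library per group the difference between cell types was not tested, and the cell types with positive and negative Drosha ratios are also those with different list formats, so format and cell type cannot be told apart.

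A list of small RNAs mapped to genes exists for DN3 control and holds 54267 distinct sequences without counts. It has 44 sequences at Tmem49, an older symbol of the miR-21 host gene Vmp1, of which 32 are sense. Of the 10 sense sequences in the 3′ UTR, 6 (of 18, 19, 20, 21, 22 and 25 nt) end at the base directly before the first base of the miR-21 guide, the position that Drosha's cut sets. None of the listed sequences holds the first 20 bases of the guide. Among 352 RefSeq hairpins whose 5′ arm strand starts at least 10 bases in, 27 had a sequence ending in this way, and 2, miR-21 among them, had 6 or more. There is no such list for another library here, so no comparison with deletion cells was made.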

How the results depend on the processing

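The miR-21 change across cell types was fitted under 20 other settings per comparison, and none brought it past the threshold in limma's test (adjusted p 0.22 to 0.99 in Drosha against control, 0.72 to 1.0 in Dicer against control, 0.17 to 1.0 in Dicer against Drosha). Its direction held in 20 of 20 for both Dicer comparisons and in 17 of 20 for Drosha against control. Some of these settings could not move the value, so they say nothing about direction. Leaving out a library of the genotype not compared, or using floors for missing values, gave the main value again. The Drosha to control change turned to 0.0647 with median-of-ratios scaling, 0.0236 without the CD4 cells and 0.0103 without the CD4 Drosha library. The cause was not tested. Leaving out 1 library at a time gave -1.01 to 0.0103 in Drosha against control, 0.06 to 0.70 in Dicer against control and 0.35 to 1.37 in Dicer against Drosha. With strands as separate entries, the star value in Dicer against control turned to -0.10, and to -0.24 with floors in place of missing values. In the fit with floors the star change in Drosha against control was -2.11 ± 0.73 (limma adjusted p 0.30). The number of miRNAs called in Drosha against control was 0, but 1 with floors in place of missing values and 0 to 17 with 1 library left out, the highest without DN3 Drosha (7 without Treg Drosha). In Dicer against Drosha it was 1, but 2 with floors, 0 without CD4 cells, 2 without Treg cells and 0 to 8 with 1 library left out, the highest without Treg Drosha. Median-of-ratios scaling put the median miRNA at 0.03 in Drosha against control (-0.50 without it), 0.23 in Dicer against control (-0.08) and 0.19 in Dicer against Drosha (0.34). Of 42 alternative values of the ratios within a cell type, 24 stayed within the counting interval (CD4, MEF) or within 0.05 log2 units (DN3, Treg), 18 moved further and 0 changed sign. The guide alone relative to the median miRNA was not among the 42. On that scale the MEF guide stood at 0.47 in Drosha against control and at -0.15 in Dicer against Drosha. Both signs are opposite to those of the summed ratios. No paired analysis was possible because each group holds 1 library and the labels carry no replicate numbers to pair by. The fit itself compares genotypes within each cell type.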
